A study of Mus musculus with 18 samples.

Results

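Mouse regulatory T (Treg) cells that carried one of 2 substitutions in Foxp3, A384T or R397W, were compared with each other across all genes. The comparison used the 3 arrays labelled A384T Treg and the 3 labelled R397W Treg, 6 of the 18 arrays of the series. Both groups were CD4+ cells sorted as hCD2+ GFP- from B6;129 mice (spleen and lymph nodes), and both were analysed freshly isolated, without treatment. The donor animals were heterozygous: one X-linked Foxp3 allele carried the substitution and the hCD2 reporter, and the other was wild type and carried GFP. Each mutant group therefore came from animals that also held wild-type GFP+ Treg cells. The age of the mice is not given in the sources used here. For orientation, values are also given for wild-type Treg cells with the hCD2 reporter from FoxP3 WT:hCD2/WT:GFP mice (WT hCD2, 2 arrays), for Treg cells with the I363V substitution (hCD2 reporter, 3 arrays) and for conventional T cells without either reporter (Tconv, 2 arrays).

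Foxp3 is the transcription factor that defines Treg cells, which restrain other immune cells. It binds DNA through a forkhead domain near its carboxy terminus, and acts together with partners such as NFAT and Runx1. A384T, R397W and I363V all lie in the forkhead domain and are known from patients with IPEX, an inherited autoimmune syndrome. Treg cells depend on IL-2 from other cells, and suppress through surface enzymes, cytokines and coinhibitory receptors.

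RNA was measured on Affymetrix mouse GeneChip arrays. One probe set was taken for each of 18193 genes, and values are on a log2 scale relative to the Tconv mean, so that 1 is a doubling and levels of different genes cannot be set against each other. Differences are A384T minus R397W, in log2 units ± SE, from a limma fit of all groups. A gene is described as called, higher or lower where its p, adjusted by the method of Benjamini and Hochberg across every gene tested, was below 0.05. The fit also held wild-type GFP+ Treg cells from WT:hCD2/WT:GFP mice (2 arrays) and from A384T:hCD2/WT:GFP mice (3 arrays). The labels do not say that each array was a separate animal. The p-values therefore measure the spread between arrays, pooled over all groups of the fit and not taken from the compared arrays alone. The small number of arrays limits the precision. In a sorted population, fewer cells of a type and less RNA per cell cannot be told apart.

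Both groups had the marks of sorted Treg cells. Foxp3 itself read 7.22, 7.53 and 7.26 on the A384T arrays and 6.38, 6.55 and 7.0 on the R397W arrays, against 7.33 and 7.06 on the WT hCD2 arrays. The probe set reads the amount of transcript and not the substitution, so it does not check which allele a sample carried. All A384T values lay above all R397W values, and the difference was 0.70 ± 0.17, a 1.62-fold higher level (limma, adjusted p = 0.0432). This call held in 1 of the 6 fits that each left out 1 array: the adjusted p was 0.012 without R397W array 3, and 0.078 to 0.189 without any of the other 5, with differences of 0.57 to 0.88 over all 6 fits. Of the 9 T cell identity genes measured, Cd3e, a chain of the T cell receptor complex, was called higher in A384T (0.77 ± 0.18, adjusted p = 0.0283), in 1 of the 6 leave-one-out fits, and the others were not called.

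The R397W arrays were more spread out than the A384T arrays. Over all genes, the SD of an array's difference from the other arrays of its group was 0.244 to 0.278 for A384T and 0.324 to 0.415 for R397W. R397W array 2 stood apart in stress genes: the inducible heat shock protein gene Hspa1a read 5.86 there, and -1.30 and -0.94 on the other R397W arrays. Among markers of other cell types, the B cell gene Ms4a1 was lower in A384T (-1.59 ± 0.27, adjusted p = 0.00484), as 1 of 9 B cell markers called, and the cytotoxic granule gene Nkg7 was higher (2.02 ± 0.36, adjusted p = 0.00575), as 1 of 9 CD8 T and NK cell markers. Of 14 myeloid and neutrophil markers, 2 (Lyz1 and Lyz2) were called higher. No dendritic cell, erythroid or stromal marker was called, of 10, 3 and 9 measured.

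A384T cells had 404 genes at a higher level than R397W cells and 165 at a lower level, which is 2.22% and 0.907% of the genes tested. For each of these 569 genes, the 3 A384T arrays did not overlap the 3 R397W arrays. Over all genes, the A384T arrays all lay above in 10.7% and the R397W arrays all lay above in 9.23%, called or not. The difference was at least 1 log2 unit for 192 of the higher and 52 of the lower genes, and at least 2 units for 31 and 6. The higher genes included Treg surface molecules and enzymes, and many of the genes lower in A384T were ones that wild-type Treg cells hold below Tconv, as given with their counts below. No called gene changed sign when 1 array was left out, and 164 of the higher and 48 of the lower genes were called in all 6 such fits. The counts moved by more than 1.5 times without A384T array 1 (80 lower), A384T array 2 (186 higher, 63 lower) and A384T array 3 (220 higher, 92 lower).

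**Figure D1:**
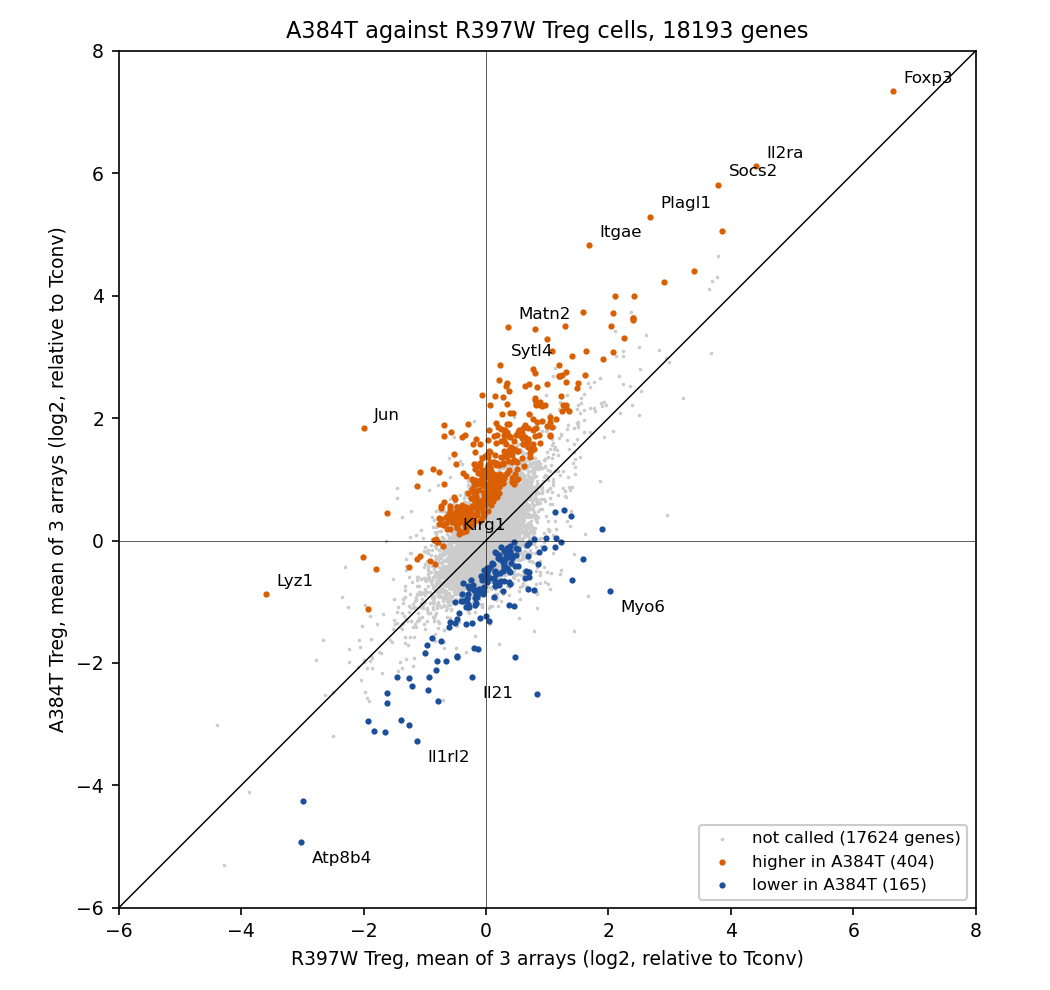
Mean of the 3 A384T arrays (vertical axis) against the mean of the 3 R397W arrays (horizontal axis), in log2 units relative to Tconv, for 18193 genes. The line marks equality; orange points are the 404 genes called higher in A384T, blue points the 165 called lower, and grey points were not called. Itgae and Matn2 lie far above the line at high A384T values, and Myo6 and Il1rl2 lie below it.

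Itgae, the alpha chain of the E-cadherin-binding integrin CD103, separated the groups by one of the widest margins. It read 4.78, 4.59 and 5.08 in A384T and 1.66, 1.44 and 1.92 in R397W. The A384T arrays lay beside the WT hCD2 arrays (4.47 and 4.85), and the I363V arrays (2.41, 2.53 and 2.19) lay between the 2 mutants, nearer to R397W. The difference between A384T and R397W was 3.14 ± 0.20, or 8.82-fold (limma, adjusted p = 1.57e-06). Against WT hCD2 it was 0.16 ± 0.23 for A384T (adjusted p = 0.905) and -2.99 ± 0.23 for R397W (adjusted p = 1.38e-05). These and all other comparisons with WT hCD2 or I363V share arrays with the comparison of the mutants, and give the position of each group rather than separate evidence.

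Matn2, which encodes the extracellular matrix adaptor matrilin-2, was higher in A384T by a similar amount. Its values were 3.14, 3.74 and 3.59 in A384T and 0.68, 1.0 and -0.58 in R397W, with 2.60 and 2.48 in WT hCD2. The lowest A384T array was above the highest wild-type array. The difference was 3.13 ± 0.33, or 8.74-fold (adjusted p = 9.06e-05), and the A384T mean stood 0.95 ± 0.37 above WT hCD2 (adjusted p = 0.515).

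Myo6 encodes myosin VI, an actin motor that moves toward the minus end of filaments. It read -0.72, -0.94 and -0.85 in A384T and 2.36, 2.04 and 1.68 in R397W. The WT hCD2 arrays, at 1.14 and 0.49, lay between them, and I363V (1.86, 2.06 and 1.73) overlapped R397W. The difference was -2.86 ± 0.23, so that A384T was 7.26-fold lower (adjusted p = 1.04e-05). A384T was below wild type by -1.65 ± 0.26 (adjusted p = 0.0133), and R397W was above it by 1.21 ± 0.26 (adjusted p = 0.0234). The mutants thus lay on opposite sides of the wild-type cells at this gene, and all 3 of its probe sets had the same sign, with a mean difference of -1.87.

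Il1rl2, the receptor for IL-36 cytokines, was lower in Treg cells than in Tconv in all groups, and least so in R397W. The values were -3.32, -3.50 and -3.01 in A384T and -0.87, -0.82 and -1.66 in R397W, against -2.94 and -3.11 in WT hCD2. A384T was 4.47-fold lower than R397W (-2.16 ± 0.20, adjusted p = 2.89e-05), while its difference from WT hCD2 was -0.26 ± 0.22 (adjusted p = 0.823). The Il1rl2 values come from a probe set of a type that can read several transcripts. The gene's other probe set gave a difference of -0.10, which was not called (adjusted p = 0.821), so the call rests on 1 probe set. Itgae, Matn2, Myo6 and Il1rl2 were each called in all 6 leave-one-out fits. The other probe sets of Itgae and Matn2 gave 3.06 and 2.18.

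Among the genes with the largest differences, Sytl4 behaved differently from Itgae: of the groups given here, it was high in A384T alone. Sytl4 encodes granuphilin, a Rab27 effector that docks secretory granules at the plasma membrane. It read 2.60, 3.07 and 2.94 in A384T, against 0.22, 0.30 and 0.19 in R397W, 0.14, 0.15 and 0.06 in I363V, and 0.20 and 0.67 in WT hCD2. Of these groups only the A384T arrays were high, and the other arrays lay within 0.7 log2 units of Tconv. Values of the wild-type GFP+ Treg arrays are not given here. The difference from R397W was 2.63 ± 0.16 (6.21-fold, adjusted p = 1.57e-06), and the difference from WT hCD2 was 2.43 ± 0.18 (adjusted p = 2.12e-05). The gene's other probe set gave 0.15 between the mutants, and the mean of both gave 1.39 (adjusted p = 3.01e-07).

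The promoters of Sytl4, Myo6 and Il1rl2 are shown because these genes mark the patterns above. Of the groups given, Sytl4 was raised in A384T alone. At Myo6 the mutants lay on opposite sides of wild type, and Il1rl2 was nearest to Tconv in R397W. Each sequence is the 250 bases before the RefSeq gene start in GRCm38.p6, written 5′ to 3′ on the strand of the gene, and capitals mark a match to a searched motif. The motifs, searched on both strands, were a forkhead core (TGTTTAC), an AP-1 site (TGANTCA) and a Runx core (TGTGGT), which do not overlap in these promoters.
Sytl4, chrX:133981813-133982062, minus strand: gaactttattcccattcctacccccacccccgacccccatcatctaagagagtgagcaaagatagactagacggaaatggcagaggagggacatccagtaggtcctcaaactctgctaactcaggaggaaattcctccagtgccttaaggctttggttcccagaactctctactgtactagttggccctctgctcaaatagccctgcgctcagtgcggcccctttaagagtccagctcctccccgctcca
Myo6, chr9:80164784-80165033, plus strand: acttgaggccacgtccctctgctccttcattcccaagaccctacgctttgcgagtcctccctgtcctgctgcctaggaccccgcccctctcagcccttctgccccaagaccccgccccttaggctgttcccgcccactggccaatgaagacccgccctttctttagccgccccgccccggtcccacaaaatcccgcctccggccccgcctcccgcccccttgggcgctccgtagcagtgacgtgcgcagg
Il1rl2, chr1:40324339-40324588, plus strand: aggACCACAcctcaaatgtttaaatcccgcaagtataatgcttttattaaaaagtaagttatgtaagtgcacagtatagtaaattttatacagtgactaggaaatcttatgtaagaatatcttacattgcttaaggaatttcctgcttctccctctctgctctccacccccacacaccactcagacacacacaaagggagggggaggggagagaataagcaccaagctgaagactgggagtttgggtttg
The Il1rl2 promoter held 1 Runx match, near its 5′ end, and the other 2 promoters held no match to these motifs in the window. Promoters were found in the RefSeq table for 309 of the genes higher in A384T, 129 of those lower and 14452 of the genes compared. A forkhead match was present in 3.56% of the higher, 3.88% of the lower and 3.04% of the compared genes, and in 3.17% of all 32851 promoters. An AP-1 match was present in 8.41%, 4.65% and 6.7%, and a Runx match in 14.2%, 14.7% and 13.7%, against 6.75% and 14.0% of all promoters. A match is a description of the sequence and was not tested as a binding site.

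The other genes with the largest positive differences spanned signalling, secretion and matrix. Camk2n1, an inhibitor of the calcium-dependent kinase CaMKII, read 3.78, 3.18 and 3.41 in A384T and 0.71, 0.45 and 1.23 in R397W. The wild-type arrays, at 2.01 and 2.50, lay between the mutants, and the difference was 2.66 ± 0.20 (6.32-fold, adjusted p = 4.44e-06), or 1.58 as the mean of its probe sets. Plagl1, a zinc finger transcription factor, read 5.43, 5.44 and 5.0 against 3.09, 2.81 and 2.16. Its difference of 2.61 ± 0.36 (adjusted p = 0.000834) came from 1 of 3 probe sets, and the others gave 1.14 and -0.10. The gelatinase gene Mmp9 read 1.88, 1.92 and 1.85 against -0.94, -0.73 and -0.37 (2.56 ± 0.28, adjusted p = 0.000129). Bmp7, a secreted factor of the TGF-beta superfamily, was higher by 2.44 ± 0.33 (1.34 as the mean of 3 probe sets), Fah, an enzyme of tyrosine breakdown, by 2.41 ± 0.22, and the tubulin gene Tubb2b by 2.35 ± 0.21.

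Ifng, which encodes the Th1 cytokine interferon gamma, read 1.81, 1.83 and 1.45 in A384T and -0.50, 0.04 and -1.56 in R397W. The groups did not overlap and differed by 2.37 ± 0.45 (5.18-fold, adjusted p = 0.00932). The I363V arrays were split at this gene, with 1 array at 1.96 and the others at -0.09 and 0.14. Lyz1, which encodes a lysozyme, read -1.69, -0.22 and -0.74 in A384T, -3.88, -3.09 and -3.84 in R397W, and 1.02 and 0.59 in WT hCD2. It was higher in A384T by 2.72 ± 0.34 (adjusted p = 0.000495) on a probe set of a type that can also read its paralog Lyz2. Of the gene's other probe sets, 1 of the same type gave 2.66 and the last gave 0.01 (adjusted p = 0.971), so the call rests on probe sets that can cross-read. Lyz2 was higher by 1.34 ± 0.31 (adjusted p = 0.0325) and was called in 2 of the 6 leave-one-out fits. No other of the 14 myeloid and neutrophil markers was called. In 3 of the 14 the A384T arrays all lay above the R397W arrays, beside 10.7% of all genes. Absolute levels of these markers cannot be read from centred values. Their median was -0.76 to 0.21 on the A384T arrays and -1.0 to -0.69 on the R397W arrays, which overlap, and the list's median difference was 0.62, or 0.06 without A384T array 2. The part of such cells in these differences was not tested.

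Jun had the largest difference of all called genes and one of the least certain. This AP-1 subunit is an immediate response gene of activated and stressed cells. It read 2.01, 1.90 and 1.58 in A384T and -3.68, 0.88 and -3.22 in R397W, so that R397W array 2 lay near the wild-type arrays (1.20 and 0.92) and the other R397W arrays lay far below. The difference was 3.84 ± 0.84 (14.3-fold, adjusted p = 0.0227). Without R397W array 2 it was 5.28 (adjusted p = 1.32e-05), and without any of the other 5 arrays it was 3.0 to 3.96 and not called (adjusted p = 0.0635 to 0.085). Its AP-1 partner Fos followed the same arrays, at -2.42, 1.0 and -2.92 in R397W and 0.78, 0.95 and 0.86 in A384T. The part of R397W array 2, with its high heat shock genes, in the AP-1 values was not tested.

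**Figure D2:**
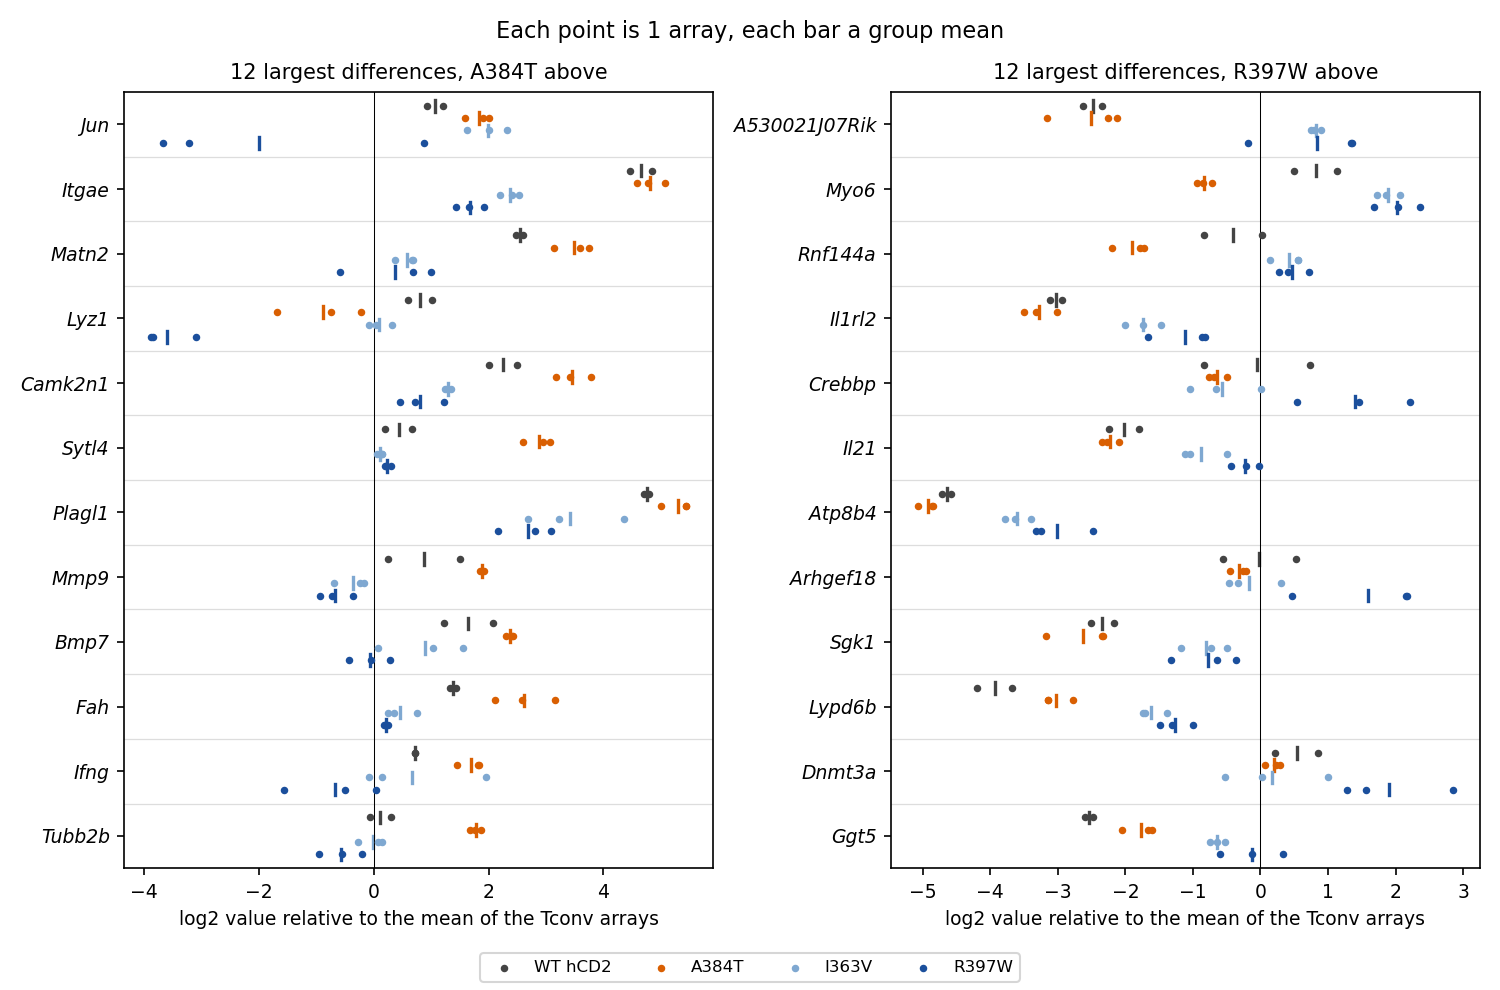
Values of the 12 genes with the largest positive differences (left) and the 12 with the largest negative differences (right). Each point is 1 array in log2 units relative to Tconv, each bar a group mean, for WT hCD2, A384T, I363V and R397W. Sytl4 is high in A384T alone, Itgae is high in A384T and WT hCD2, Jun has 1 R397W array near the other groups, and A530021J07Rik is low in A384T and WT hCD2.

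Of the genes lower in A384T, the uncharacterised transcript A530021J07Rik differed most. It read -3.16, -2.13 and -2.25 in A384T and 1.34, 1.35 and -0.18 in R397W, with -2.62 and -2.34 in WT hCD2. A384T lay with wild-type Treg cells, and R397W lay with Tconv or above it. The difference was -3.35 ± 0.43, or 10.2-fold lower (adjusted p = 0.000582). Rnf144a, an E3 ubiquitin ligase gene, instead was low in A384T alone among the mutants. It read -2.19, -1.78 and -1.73 in A384T, 0.72, 0.41 and 0.27 in R397W, and -0.83 and 0.03 in WT hCD2 (-2.37 ± 0.25 against R397W, adjusted p = 8.82e-05), and the mean of its 3 probe sets gave -1.13. In order of role, the remaining lower genes included the cytokine gene Il21 (-2.0 ± 0.23, adjusted p = 0.000233), which acts on B cells and T cells, and the phospholipid flippase gene Atp8b4 (-1.91 ± 0.19, adjusted p = 4.89e-05). They also included the kinase gene Sgk1 (-1.84 ± 0.28, adjusted p = 0.00156), Lypd6b (-1.75 ± 0.21) and Ggt5 (-1.64 ± 0.18), a gamma-glutamyltransferase family gene. As means of their probe sets, Il21, Atp8b4 and Ggt5 differed by -1.13, -1.10 and -1.06.

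Il21 read -2.09, -2.27 and -2.34 in A384T and -0.22, -0.02 and -0.44 in R397W, against -1.80 and -2.24 in WT hCD2. The A384T and wild-type arrays thus shared a range below Tconv that the R397W arrays did not enter. Sgk1, at -2.33, -3.18 and -2.35 in A384T and -0.65, -0.36 and -1.32 in R397W, was placed in the same way beside wild-type values of -2.51 and -2.17. Ggt5 read -2.05, -1.67 and -1.60 in A384T and -0.13, -0.60 and 0.34 in R397W, and at this gene the A384T mean stood 0.76 ± 0.21 above WT hCD2 (adjusted p = 0.236). The last members of the 12, Crebbp (-2.05 ± 0.50), Arhgef18 (-1.90 ± 0.41) and Dnmt3a (-1.70 ± 0.41), were called in 1 of the 6 leave-one-out fits each. Without R397W array 2 they were called (adjusted p = 0.0222, 0.000893 and 0.0287), and in the other 5 fits the adjusted p was 0.0517 to 0.142. Of all their probe sets, counting the one used, 3 of 4, 1 of 4 and 2 of 5 had the opposite sign to it. No other Crebbp probe set shared the sign of the one used (0.16 to 0.22).

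Most genes called between the mutants had a wild-type mean nearer to A384T. This was so for 301 of the 404 genes higher in A384T and 133 of the 165 lower, against 51.3% of all genes. Over the higher genes, the median difference from WT hCD2 was 0.26 in A384T and -0.72 in R397W, and over the lower genes -0.15 and 0.61. At 58 called genes (50 higher and 8 lower in A384T) the wild-type mean lay between the mutants with at least 0.5 log2 units to each. The 5 of these with the largest differences were Jun, Matn2, Myo6, Camk2n1 and Plagl1.

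A gene set chosen on arrays of neither mutant gave the same order. WT hCD2 cells had 491 genes above Tconv (2.7% of those tested) and 251 below (1.38%). Of the 491, 199 were higher in A384T than in R397W (40.5%) and 3 were lower (0.611%), beside 2.22% and 0.907% of all genes, and the median difference was 0.65, beside -0.01 over all genes. The median of these genes relative to Tconv was 1.33 and 1.26 on the WT hCD2 arrays and 1.12, 1.32 and 1.21 on the A384T arrays. It was 0.76, 0.79 and 0.60 in I363V and 0.68, 0.48 and 0.58 in R397W. The A384T arrays lay within or just below the wild-type range and above every array of the other mutants, while I363V and R397W overlapped.

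Of the 251 genes that wild-type Treg cells hold below Tconv, 63 were lower in A384T (25.1%) and 2 were higher (0.797%), with a median difference of -0.26. Their median was -1.03 and -0.98 in WT hCD2, -0.92, -0.91 and -0.92 in A384T, -0.72, -0.63 and -0.75 in I363V, and -0.60, -0.56 and -0.74 in R397W. R397W cells thus kept a smaller distance from Tconv than A384T cells in both directions. With 1 array left out, the count of 199 was 124 to 188, the lowest without A384T array 2, and the count of 63 was 34 to 72. It moved by more than 1.5 times without A384T arrays 1, 2 and 3 (39, 34 and 38) and without R397W array 1 (39).

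**Figure D3:**
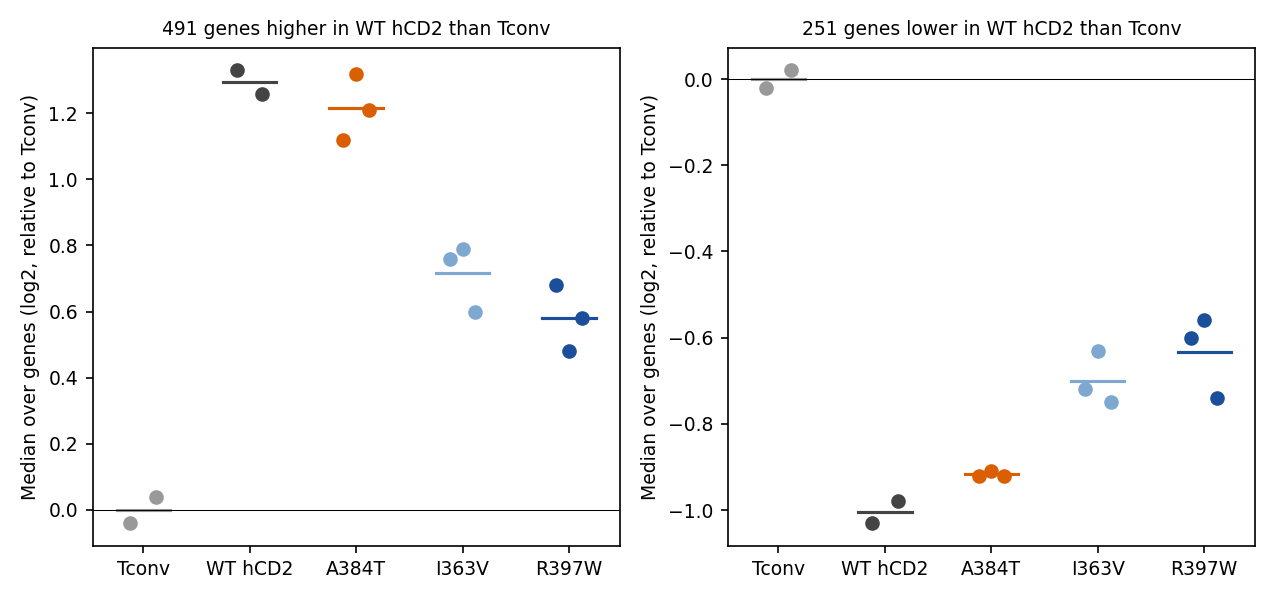
Median over genes on each array, in log2 units relative to Tconv, for the 491 genes higher (left) and the 251 genes lower (right) in WT hCD2 than in Tconv. Points are arrays and lines group means. The A384T arrays (1.12 to 1.32 on the left) lie beside WT hCD2 and above I363V and R397W, whose arrays lie between 0.48 and 0.79.

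The gene lists below are described by counts, to be read beside the 2.22% of all genes called higher and 0.907% called lower in A384T, and beside a median of -0.01 over all genes. The lists were chosen with earlier results of these data known, so their counts are a description and not separate evidence. Of 28 measured core genes known to be high in Treg cells, 16 were higher in A384T and none was lower (median difference 1.05). Of 16 core genes known to be low in Treg cells, 8 were lower in A384T and none was higher (median -0.86). The first list stood at a median of -0.15 from WT hCD2 in A384T and -0.96 in R397W, and the second at 0.15 and 1.25. The 16 called genes comprised Foxp3, Il2ra, Ctla4, Itgae, Itgb8, Nrp1, Gpr83, Entpd1, Ebi3, Capg, Cd83, Socs2, Plagl1, Penk, Dusp4 and Il10. Most of these 16 calls were lost under quantile normalization, as given in the closing sections. The first count was 11, 10 and 9 without A384T arrays 1, 2 and 3 and 9 without R397W array 2, and the second was 5 without A384T array 2. Among those not called, Ikzf2, the Treg transcription factor Helios, differed by 0.53 ± 0.15 (adjusted p = 0.0645).

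In the core list held low in Treg cells, the called genes were Tgfbr3, Dapl1, Il2, Pde3b, Themis, Lypd6b, Pdlim4 and Atp8b4. Il2, the growth factor that Foxp3 represses, read -0.77, -0.89 and -0.76 in A384T and -0.12, -0.22 and -0.26 in R397W, against -0.91 and -0.66 in WT hCD2. The mutants did not overlap, and the difference was -0.61 ± 0.09 (1.52-fold lower, adjusted p = 0.00193). Themis, a regulator of T cell receptor signalling, read -1.68, -2.03 and -1.55 against -0.35, 0.27 and -0.53 (-1.55 ± 0.23, adjusted p = 0.00145). Pde3b, the phosphodiesterase that breaks down cyclic AMP and is repressed by Foxp3, read -2.34, -2.51 and -2.27 in A384T and -1.23, -0.61 and -1.78 in R397W (-1.17 ± 0.25, adjusted p = 0.0221). At Pde3b both mutants lay above wild type, whose mean was -3.37, and 1 of the 6 leave-one-out fits kept the call, that without R397W array 3 (adjusted p = 0.00457, and 0.0514 to 0.0981 in the others).

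Of 17 genes of IL-2 reception and STAT5 signalling, 5 were higher in A384T (Il2ra, Il2rb, Socs2, Pim1 and Cish), none was lower and 12 were not called, beside 2.22% of all genes called higher (median difference 0.83, or 0.42 without R397W array 2). Of the receptor chains, Il2ra (CD25) read 6.0, 6.06 and 6.30 in A384T, 4.31, 4.30 and 4.61 in R397W and 5.55 and 5.20 in WT hCD2. The A384T arrays were above the wild-type arrays and the R397W arrays below them. The difference between mutants was 1.71 ± 0.16 (3.28-fold, adjusted p = 3.76e-05). Il2rb (CD122) was higher by 2.15 ± 0.42 (adjusted p = 0.0125), with R397W array 2 the lowest at 0.55.

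Of the feedback and target genes in the list, Socs2, Pim1 and Cish were called, and Socs1, Socs3, Bcl2, Pim2, Mcl1, Osm and Lta were not. Socs2, a feedback inhibitor of cytokine signalling, read 5.92, 5.83 and 5.68 in A384T, 4.05, 3.39 and 3.92 in R397W and 4.66 and 4.48 in WT hCD2. It was above wild type in A384T (1.24 ± 0.19, adjusted p = 0.012) and below it in R397W (-0.78 ± 0.19, adjusted p = 0.0487), and the mutants differed by 2.02 ± 0.17 (adjusted p = 1.53e-05). With the probe sets that can read several transcripts left out, another Socs2 probe set gave 1.08 and was not called (adjusted p = 0.0737), while all 6 probe sets had the same sign and their mean was 1.28. The kinase gene Pim1 was higher by 1.40 ± 0.22 (adjusted p = 0.00199) and Cish, another feedback inhibitor, by 1.0 ± 0.18 (adjusted p = 0.00645). Cish was not called in the 6 arrays alone (adjusted p = 0.0719) and differed by 0.17 after quantile normalization (adjusted p = 0.846). Relative to WT hCD2, the list's median was 0.30 in A384T and -0.49 in R397W.

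Of 16 molecules of suppression, 7 were higher in A384T, none was lower and 9 were not called, beside 2.22% of all genes called higher (median difference 1.24). Entpd1, the ectoenzyme CD39 that breaks down extracellular ATP, read 2.86, 2.68 and 2.73 in A384T and 1.37, 1.22 and 1.34 in R397W, against 2.95 and 3.30 in WT hCD2. Ebi3, a subunit of IL-35 and IL-27, read 2.32, 2.89 and 2.36 against 0.84, 0.59 and 0.46. The differences were 1.44 ± 0.14 (adjusted p = 5.5e-05) and 1.89 ± 0.26 (adjusted p = 0.000914), and both groups of arrays were below wild type at Ebi3, whose wild-type mean was 3.30. Penk, the precursor of enkephalins, was higher by 1.66 ± 0.27 (adjusted p = 0.00323). Fgl2, a secreted suppressor protein, was higher by 2.19 ± 0.42 (adjusted p = 0.0102), and 1.97 without A384T array 3, where it was not called (adjusted p = 0.056).

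The cytokine gene Il10 read 1.76, 1.46 and 1.65 in A384T and 0.26, 0.10 and 0.39 in R397W. The arrays did not overlap (1.37 ± 0.32, adjusted p = 0.0335), but the call was lost in each of the 6 leave-one-out fits. Ctla4, the coinhibitory receptor, was higher by 1.01 ± 0.22 (adjusted p = 0.0208) and Itgb8, the integrin chain that activates TGF-beta, by 1.32 ± 0.29 (adjusted p = 0.0232). These were called in 3 and 2 of the 6 fits. The list's count was 3 to 6 with 1 array left out, and moved by more than 1.5 times without A384T array 3 (3) and R397W array 2 (4). Nt5e, the enzyme CD73 that acts after CD39, differed by 0.32 ± 0.17 (adjusted p = 0.395).

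**Figure D4:**
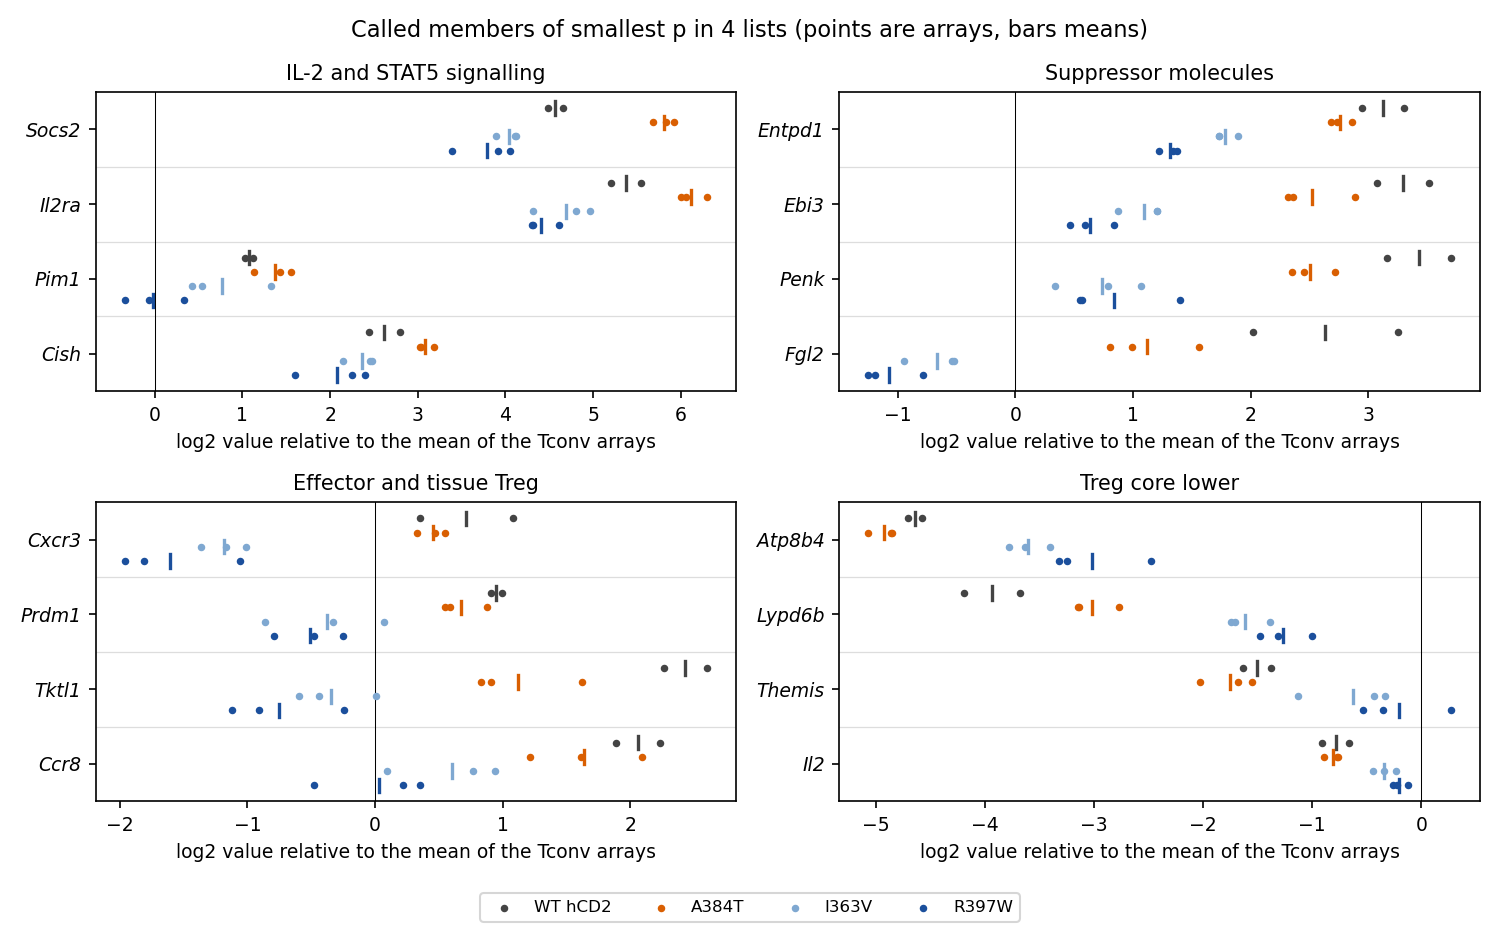
Values of the called members of smallest p in the lists of IL-2 and STAT5 signalling, suppressor molecules, effector and tissue Treg genes, and core genes held low in Treg cells. Points are arrays in log2 units relative to Tconv and bars are group means. At Socs2 and Il2ra the A384T arrays lie above WT hCD2, at Ebi3, Penk and Fgl2 they lie between WT hCD2 and R397W, and at Atp8b4 and Themis they lie below R397W.

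Of 29 effector and tissue Treg genes, 10 were higher in A384T, none was lower and 19 were not called, beside 2.22% of all genes called higher. The median difference was 1.08, and the median from WT hCD2 was -0.74 in A384T and -1.62 in R397W. Prdm1, which encodes the effector regulator Blimp-1, read 0.59, 0.55 and 0.88 in A384T and -0.25, -0.48 and -0.79 in R397W (1.18 ± 0.20, adjusted p = 0.00355). Tktl1, a transketolase-like gene, read 0.83, 1.62 and 0.91 against -0.24, -0.91 and -1.12, with 2.26 and 2.60 in WT hCD2, so that the 3 groups did not overlap. This probe set is of a type that can read several transcripts: the gene's others gave 0.90 (adjusted p = 0.0718) and 0.13, and the mean of all gave 0.97. The list's count was 4 to 9 with 1 array left out. It was 4 without A384T array 2 or A384T array 3 and 5 without R397W array 2.

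The effector marker Klrg1 was not called between the mutants. It read -0.05, 0.11 and 0.06 in A384T, -0.76, -0.70 and -0.23 in R397W and 3.49 and 4.92 in WT hCD2. Both mutants were far below wild type, by -4.17 ± 0.42 (adjusted p = 0.000903) and -4.77 ± 0.42 (adjusted p = 3.57e-05), and differed from each other by 0.60 ± 0.38 (adjusted p = 0.47), although their arrays did not overlap. Batf, an AP-1 family factor of effector Treg cells, read -0.41, 0.18 and -0.04 in A384T and 0.76, 0.02 and 0.86 in R397W. These values overlapped, both groups lay below the wild-type arrays (1.14 and 1.18), and the difference was -0.64 ± 0.24 (adjusted p = 0.195).

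Receptors for chemoattractants differed in both directions, with 6 of 21 called higher in A384T and 1 lower (median 0.30). Cxcr3, the receptor for interferon-induced chemokines, read 0.33, 0.47 and 0.55 in A384T and -1.06, -1.81 and -1.96 in R397W (2.06 ± 0.27, adjusted p = 0.000676). Ccr6 was higher by 1.09 ± 0.20 (adjusted p = 0.00623) and Ccr8 by 1.61 ± 0.31 (adjusted p = 0.00991), while Ccr2, Cxcr5 and Gpr15 were called in at most 2 of the 6 leave-one-out fits. Ccr8 lost its call without A384T array 2 (1.38, adjusted p = 0.0613). Gpr183, an oxysterol receptor that positions cells in follicles, was the member that was lower. It read -2.26, -1.85 and -1.61 in A384T and -0.40, -0.17 and -0.85 in R397W, with -0.90 and -0.49 in WT hCD2 (-1.43 ± 0.20, adjusted p = 0.00121). All A384T arrays lay below the wild-type arrays. The count of 6 was 2 without A384T array 2 and 3 without A384T array 3, R397W array 2 or R397W array 3.

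Costimulatory and coinhibitory receptors were called higher for 3 of 23 and lower for 2 (median 0.32). Icos, a costimulatory receptor, was higher by 1.34 ± 0.28 (adjusted p = 0.0156), in 3 of the 6 leave-one-out fits, and Pdcd1lg2, the ligand PD-L2, by 0.96 ± 0.16 (adjusted p = 0.00393). Cd86, a ligand of CD28 and CTLA-4, was lower in A384T: it read 0.17, 0.49 and 0.53, against 1.65, 1.16 and 1.37 in R397W and a wild-type mean of 1.55. The R397W arrays lay near wild type and the A384T arrays below both (-1.0 ± 0.15, adjusted p = 0.00142). Slamf6, a homophilic receptor of lymphocytes, was lower by 1.29 log2 units (SE 0.26, adjusted p = 0.013), in 4 of the 6 fits, and by 0.65 as the mean of its probe sets. Among 17 TNF receptor family genes none was called, and the largest difference was that of Tnfrsf1b, the TNF receptor of Treg expansion (1.32 ± 0.34, adjusted p = 0.0524).

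Of 11 Th1 genes, 4 were higher and none lower (median 0.34), and the count was 4 in every leave-one-out fit: Tbx21, Cxcr3, Ifng and Il12rb1. Tbx21, which encodes the Th1 factor T-bet, read -0.41, -0.18 and -0.23 in A384T and -2.02, -2.08 and -1.93 in R397W. The A384T mean was within 0.01 of WT hCD2 and the R397W mean lay 1.75 below it, and the mutants differed by 1.73 ± 0.24 (adjusted p = 0.000865). Il12rb1, a receptor chain for IL-12, was higher by 0.86 ± 0.15 (adjusted p = 0.00544). Of 8 Th2 genes, Gata3 and Ccr8 were higher (median 0.11), and of 5 Th17 genes, Ccr6 was (median -0.09).

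Follicular helper genes comprised 4 of 11 called higher and 1 lower (median 0.45), the latter being Il21. Tox2, a transcription factor gene of this list, read 1.71, 1.69 and 1.67 in A384T and -0.80, -0.21 and -0.15 in R397W (2.08 ± 0.27, adjusted p = 0.000621), but its second probe set gave -0.33, so its direction is uncertain. The others were Icos, Cxcr5 and Il6ra (0.80 ± 0.17, adjusted p = 0.0191), with Il6ra called in 3 of the 6 leave-one-out fits. The count of 4 was 1 without A384T array 3 and 2 without A384T array 2, R397W array 2 or R397W array 3. Among 18 helper cytokines, Ifng, Tnf and Csf1 were higher and Il2 and Il21 lower (median -0.09), and only 2 of the 4 probe sets of Csf1 had that sign. Tnf differed by 0.58 ± 0.12 (adjusted p = 0.0157), in 3 of the 6 fits.

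Of 33 transcription factors that act with Foxp3 or in Treg cells, Gata3 and Bcl11b were higher in A384T and Id2 was lower, with a median of 0.34. Gata3 read 0.90, 0.98 and 1.09 in A384T and -0.55, -0.31 and 0.33 in R397W (1.17 ± 0.24, adjusted p = 0.014), and was called in 2 of the 6 leave-one-out fits, without A384T array 1 or R397W array 3. Id2, an inhibitor of E proteins, read -1.86, -2.08 and -1.93 in A384T and -0.50, -0.04 and -1.41 in R397W, with -1.08 and -1.02 in WT hCD2 (-1.31 ± 0.26, adjusted p = 0.013, or -0.72 as the mean of its probe sets). Bcl11b, a T cell lineage factor, differed by 0.86 ± 0.21 (adjusted p = 0.0403), in 1 of the 6 fits. Of 18 AP-1 and Maf genes, Jun and Junb were higher (median 0.09), and Junb (1.51 ± 0.36, adjusted p = 0.0375) was called in 1 of the 6 fits.

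The families of Itgae, Matn2, Myo6 and Il1rl2 had most members not called. Each family holds a given marker of this comparison and so was bound to hold a called gene. Its count therefore cannot be set against the 3.13% of all genes called in either direction. Of 24 integrin chains, Itgae and Itgb8 were higher and Itgb3 lower (median 0.06), and Itgb3 differed by -0.56 ± 0.13 (adjusted p = 0.0357). Of 21 matrix protein genes, Matn2 and Lamc1 were higher (median -0.08). Lamc1, a laminin chain, read 1.90, 1.75 and 1.68 in A384T and 0.48, 0.32 and 0.18 in R397W, against 2.33 and 1.73 in WT hCD2 (1.45 ± 0.16, adjusted p = 0.000171). Its second probe set gave 0.00, and the mean of both 0.73. Of 21 myosins, Myo6 was lower, and Myo1e, Myo3b and Myo18a were higher by 0.77 to 0.91 (median 0.01), these 3 in at most 2 of the 6 fits each. Of 9 receptors of the IL-1 and IL-18 family, Il1rl2 was lower, and Il1r2, a decoy receptor for IL-1, was higher (1.5 ± 0.36, adjusted p = 0.0377), in 2 of the 6 fits (list median -0.09).

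Semaphorins and their receptors were called in both directions, 2 higher and 2 lower of 16 (median 0.12). Nrp1, a coreceptor found on thymus-derived Treg cells, read 3.81, 3.86 and 4.32 in A384T and 2.40, 2.32 and 2.55 in R397W, with a wild-type mean of 4.21 (1.58 ± 0.24, adjusted p = 0.00202). The semaphorin receptor gene Plxnd1 was higher by 1.40 ± 0.25 (adjusted p = 0.00684). Sema4a, a semaphorin ligand, read -1.35, -1.45 and -1.30 in A384T and -0.44, 0.02 and -0.54 in R397W (-1.05 ± 0.13, adjusted p = 0.000532), on a probe set that can read several transcripts, and its other probe set gave -0.63 (adjusted p = 0.0938). Sema4f was also lower (-0.78 ± 0.20, adjusted p = 0.0477), a call that 1 of the 6 leave-one-out fits kept.

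Counts in the remaining programme lists can be read beside the 3.13% of all genes called in either direction. Of 26 genes of adenosine and cyclic nucleotide control, Entpd1 was higher and Pde3b, Pde4d and Pde7a, all phosphodiesterases, were lower (median 0.09). Of 24 genes of TGF-beta signalling, Tgfbr1 and Itgb8 were higher and the coreceptor gene Tgfbr3 was lower (median 0.18). Of 15 MAP kinase phosphatases and Sprouty genes, Dusp4 and Dusp16 were higher (median 0.30), of 21 early T cell receptor response genes only Nfkb2 was (median 0.28), and of 12 naive T cell genes Dapl1 was lower (median 0.22). The 9 genes named here besides Entpd1 and Tgfbr3 were each called in at most 3 of the 6 leave-one-out fits, and the second probe set of Tgfbr3 had the opposite sign.

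In the proliferation, interferon and stress lists the counts of called genes were near the 3.13% of all genes called, given the size of the lists. None of 25 cell cycle genes was called (median -0.21), and the mitotic kinase gene Cdk1 differed by -0.82 ± 0.42 (adjusted p = 0.364). Of 13 type I interferon response genes, Ifit2 was lower (-0.51 ± 0.12, adjusted p = 0.028), in 2 of the 6 fits, and the median was -0.23. In 6 of these 13 the R397W arrays all lay above the A384T arrays, beside 9.23% of all genes. In 1 the A384T arrays all lay above, beside 10.7%. None of 11 heat shock genes was called (median 0.04). Hspa1a differed by -1.75 ± 1.32 with R397W array 2 and by 0.58 without it.

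**Figure D5:**
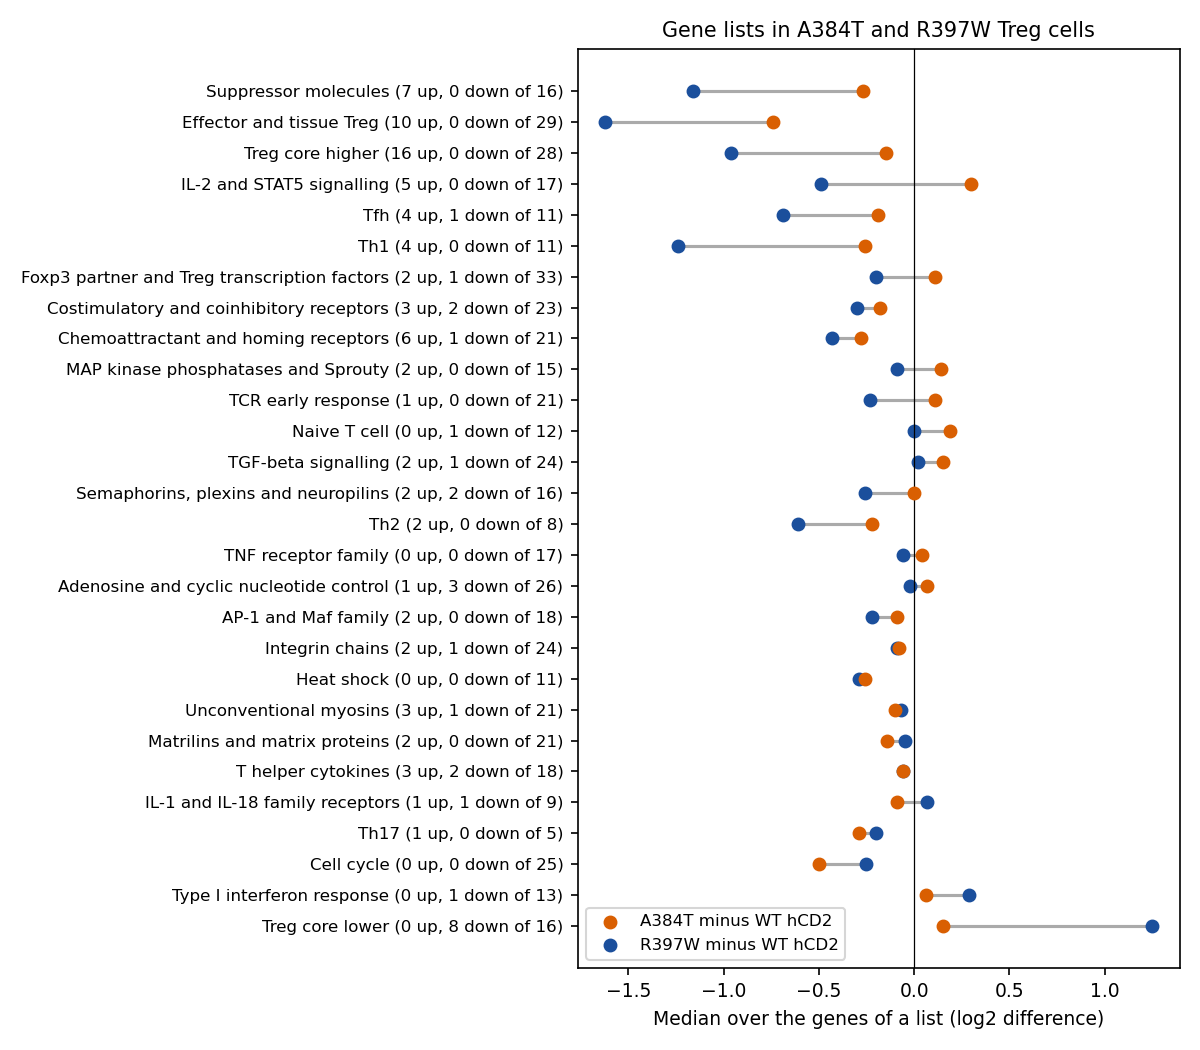
Median over the genes of each list, as a log2 difference from WT hCD2, in A384T (orange) and R397W (blue). The numbers beside each name count members called higher (up) and lower (down) in A384T than in R397W, of those measured. Suppressor, effector and core Treg genes lie farther from WT hCD2 in R397W than in A384T, and IL-2 and STAT5 genes lie on opposite sides of it.

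I363V was the other mutant measured with the hCD2 reporter. Its mean was nearer to R397W than to A384T at 313 of the 404 genes higher in A384T, against 49.8% of all genes. Of the 165 genes lower in A384T, 89 were placed so, which is near the share of all genes. At Itgae, Matn2, Camk2n1, Fah and Sytl4, A384T was above I363V by 2.44 ± 0.20, 2.92 ± 0.33, 2.17 ± 0.20, 2.17 ± 0.22 and 2.75 ± 0.16, each with an adjusted p of at most 0.00027. At the same genes I363V differed from R397W by 0.70, 0.21, 0.49, 0.24 and -0.12, none of which was called. Lyz1 was an exception: I363V read -0.08, 0.32 and 0.04 and was above R397W by 3.70 ± 0.34 (adjusted p = 0.000539). Jun was another, with I363V at 1.63, 2.32 and 2.01 beside A384T, but its difference of 3.99 ± 0.84 from R397W was not called (adjusted p = 0.114).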

How the data were processed

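RNA of 18 samples was measured, and the authors made the deposited log2 values with RMA, per the submitters' processing notes, which name no version. The log base is taken from the convention of RMA. Each deposited probe set is shifted so that the Tconv arrays average 0 (largest sum 1e-06), so levels are lost and no filter on dim probe sets was possible; scan batches and the background step were not examined. The platform annotation gave 34945 of 45101 probe sets 1 gene, 932 several and 9160 none, besides 64 controls. Genes with several probe sets (9010 of 18193) were represented by the one of largest variance over all arrays.

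Group means of the 18 arrays in 7 groups were fitted with limma 3.58.1 in R 4.3.3 (11 residual and 3.3 prior degrees of freedom), with two-sided tests, no covariate and Benjamini-Hochberg adjustment over all genes. Tables and plots used Python 3.11.15, pandas 2.3.3, numpy 2.4.6 and matplotlib 3.10.9. An exact permutation test of 3 arrays against 3 cannot go below 0.1 and was not used. On simulated data with 200 changed genes of 18193, the design recovered 29.2%, 84%, 98.8% and 100% of changes of 0.5, 1, 2 and 3, with 4.4% false calls. The simulation gave each gene the same spread in all groups and drew arrays independently. The R397W arrays were more spread out than the A384T arrays, so these shares may not hold for this comparison.

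Alternatives were the 6 arrays alone, a replicate block, each array left out, the mean of a gene's probe sets, no _x_at or _s_at probe sets (which can read several transcripts), median centring, quantile normalization, a variance filter, robust moderation and array weights. Named genes were the given markers with Foxp3, Batf and Klrg1, the 12 largest called differences in each direction, up to 4 called members of each list by p, and the 5 largest with wild type between the mutants; others were named after their values were seen. The members, gene lists and tests were chosen with earlier results of these data known. Promoters are from RefSeq (GRCm38.p6); Itgae and Matn2 had no entry.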

Additional observations from a re-analysis of the deposited data

How the results depend on the processing

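Beside 404 genes higher and 165 lower in A384T, a fit of the 6 arrays alone called 232 and 66, and quantile normalization 167 and 76. Leaving out 1 array gave 186 to 411 and 63 to 236. Probe set choice, median centring, the variance filter, robust moderation and array weights kept both counts within 1.5 times (323 to 458 and 143 to 167). The labels do not say whether equal array numbers mark a shared batch. Deviations from the group means correlated at -0.21, -0.17 and -0.09 where numbers matched and at 0.02 to 0.15 where they did not. Deviations within a group cancel out at each gene, so these correlations are tied together and cannot exclude a shared batch. With the array number as a replicate block in the 6 arrays alone, 42 and 6 genes were called. Quantile normalization gives equal ranks equal values, so a gene of the same rank on every array cannot differ under it. Foxp3 lay near the top of the scale: it read 7.53 on A384T array 2, beside a highest value of 7.59 in the series. Why calls were lost under this normalization was not tested. Foxp3 then differed by 0.00, Il2ra by 0.58 and Socs2 by 0.68, none of them called. Core Treg genes were called higher for 3 and lower for 1 of 28 (median 0.26). Among the 491 genes high in wild-type Treg cells it called 90 higher and 10 lower. Of 83 named genes, 29 lost their call in the 6 arrays alone, 53 in those arrays with the replicate block and 34 under quantile normalization. With probe sets averaged 10 lost it, and without _x_at and _s_at probe sets 6 did (Il1rl2, Lyz1, Socs2, Tktl1, Sema4a and Sema4f). Among genes called in all 6 leave-one-out fits, the 6 arrays alone lost Cish, Pdcd1lg2 and Il12rb1, and quantile normalization lost Plagl1, Il21, Socs2, Il2ra, Entpd1, Cish, Ccr6, Pdcd1lg2, Il12rb1 and Nrp1. Of the same 83, 3 reversed: Tox2 without _x_at and _s_at probe sets (-0.33), and Hspa1a and Hspa1b, which were never called, without R397W array 2. With 1 array left out, Hspa1a ranged from -3.00 to 0.58 and Hspa1b from -2.85 to 1.06. Foxp3 kept its direction under all alternatives but quantile normalization, with adjusted p of 0.012 to 1. Differences of 0.5 log2 units were mostly missed at this number of arrays in the simulation, so genes not called may still differ.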

Other observations

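Several further genes, named after their values were seen, had differences of about 2 log2 units that all 6 leave-one-out fits called. Il10ra, the receptor chain for IL-10, read 1.72, 1.79 and 1.63 in A384T and -0.15, -0.55 and -0.32 in R397W (2.05 ± 0.13, limma adjusted p = 1.57e-06), although 1 of its 3 probe sets had the opposite sign. The receptor tyrosine kinase gene Axl read 1.73, 2.36 and 2.53 against 0.10, -0.01 and 0.10 (2.14 ± 0.25, adjusted p = 0.00024), and the tyrosine kinase gene Src 2.31, 2.26 and 2.46 against 0.14, -0.03 and 0.70 (2.08 ± 0.28, adjusted p = 0.000834). At Il10ra and Axl the A384T mean was within 0.34 and 0.11 of WT hCD2, and the R397W mean lay -1.71 and -2.25 from it.

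Genes best known from muscle and the cytoskeleton were among them. Neb (nebulin) read 3.33, 3.40 and 3.14 in A384T and 0.62, 1.16 and 1.19 in R397W (2.30 ± 0.31, adjusted p = 0.000688). Enah, an actin regulator, read 2.62, 2.28 and 2.18 against 0.25, 0.03 and 0.15, and was 1.71 above WT hCD2 in A384T. The calcium channel gene Ryr2 read 2.97, 3.25 and 3.03 against 1.42, 0.96 and 0.82 and was 1.95 above WT hCD2 in A384T, but its second probe set had the opposite sign.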
